A study of Mus musculus with 9 samples.

Results

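Plasminogen activation on macrophages was followed through 6 genes: Plau, which encodes urokinase, Plaur, its receptor, Serpinb2, its intracellular inhibitor, the membrane protease gene St14 (matriptase), and Spint1 and Spint2, which encode Kunitz-type inhibitors of matriptase. A gene entered the comparisons if it had a probe with that symbol in the platform annotation whose detection p-value was under 0.05 on 3 or more of the 9 arrays. The annotation held 10 probes for the 6 symbols, and 4 of them passed, 1 each for Plau, Plaur, Serpinb2 and Spint1. These 4 genes stood among 9081 symbols with a passing probe. No probe of Spint2 or St14 passed. The probes were chosen by their detection p-values, and the 6 genes by their log2 differences in earlier results of these same arrays, so the tests below describe them and are not independent evidence.

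The arrays held RNA from bone marrow-derived macrophages of C57Bl/6 mice, grown with L929-conditioned medium, which supplies M-CSF. Macrophages of 3 mice per group were held for 1 h in vehicle, 6877002 or 6860766. The last 2 are TRAF-STOPs, compounds designed against the TRAF6 arm of CD40 signalling. All 3 groups, vehicle included, were then stimulated through CD40 for 8 h with 25 ug/ml of the activating antibody FGK45, so no group shows these genes without CD40 activation. Compound doses and the age and sex of the mice are not in the labels. They number the mice from 1 to 3 in each group: replicates 1, 2 and 3 were mice 1, 3 and 2 for vehicle, 2, 1 and 3 for 6877002, and 1, 2 and 3 for 6860766. Nothing states that the cultures were grown apart, so the p-values measure the spread between these arrays.

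Plasminogen is a circulating zymogen that urokinase cleaves to plasmin, a broad protease that dissolves fibrin and helps cells to move through matrix. The receptor encoded by Plaur holds urokinase at the cell surface, and serpins end the reaction by trapping the active enzyme. Serpinb2, also called plasminogen activator inhibitor type 2, is known as a gene that activated macrophages induce strongly, and most of its protein stays in the cytosol. Matriptase can activate pro-urokinase, and the inhibitors encoded by Spint1 and Spint2 are best known for holding it in check in epithelia.

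Of 45281 probes, 33.7% to 35.2% were detected per array, at a median intensity of 98.7 to 113. Across the 16415 passing probes, arrays of a group correlated at r = 0.991 to 0.996. The 4 slides were not balanced: slide 1 held vehicle replicate 1 and 6860766 replicates 1 and 2, slide 2 vehicle replicate 2, slide 3 6877002 replicates 1 and 2 and 6860766 replicate 3, and slide 4 6877002 replicate 3 and vehicle replicate 3. Vehicle and 6877002 thus met on slide 4 alone, with 1 array each. All 9 macrophage markers with a probe were detected, among them Adgre1, a surface receptor of mature macrophages (deposited log2 value 13.20 to 13.59), and Csf1r, the M-CSF receptor (11.21 to 11.46). In the same list Fcgr1, a high-affinity IgG receptor, rose by 0.40 with 6877002 (adjusted p = 0.0335 in limma) and changed by -0.55 with 6860766 (0.00297), and Mertk, a receptor for apoptotic cells, rose by 0.50 with 6877002 (0.0205). The summed linear level of the list was 61516 to 65299 with vehicle, 58484 to 61920 with 6877002 and 57429 to 61867 with 6860766. The part of these markers in the results below was not tested. Of the markers of other cells, 0 of 10 for fibroblasts and 0 of 6 for T cells were detected. Detected were 6 of 9 for neutrophils, among them S100a8 (10.25 to 10.53) and S100a9 (8.94 to 9.33). So were 1 of 8 for endothelial cells (Vwf, 9.44 to 9.91), 1 of 6 for NK cells (Prf1, 7.57 to 8.31) and 1 of 4 for B cells (Cd79b). For mast cells (Kit) and dendritic cells (Ccr7) it was 1 of 8 each. None of these detected markers of other cells passed in any comparison. The summed level of the neutrophil markers was 2044 to 2375 with vehicle, 2134 to 2421 with 6877002 and 2019 to 2325 with 6860766.

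RefSeq promoter windows on GRCm38.p6, from 250 bases before to 50 bases after a transcript start, were listed for 4 of the 6 genes (Plaur, Serpinb2, Spint1 and Spint2). The windows of Serpinb2, Spint1 and Plaur are shown because the first pair of genes rose with the same compound in these arrays and the third did not, as described below. Capitals mark each match to 5 short patterns searched on both strands: GCGTG (the core of the aryl hydrocarbon receptor element), TGANTCA (AP-1), GGGNNTTTC (the start of a kappa B element), TTCNNNGAA (STAT) and TATAAA (the TATA box).
Serpinb2, chr1:107511173-107511472, plus strand: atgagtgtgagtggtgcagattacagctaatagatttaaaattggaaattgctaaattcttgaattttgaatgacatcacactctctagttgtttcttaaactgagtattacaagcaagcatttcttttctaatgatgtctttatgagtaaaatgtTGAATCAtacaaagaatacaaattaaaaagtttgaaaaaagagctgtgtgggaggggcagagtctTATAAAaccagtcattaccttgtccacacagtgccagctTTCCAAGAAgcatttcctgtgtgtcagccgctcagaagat
Spint1, chr2:119237110-119237409, plus strand: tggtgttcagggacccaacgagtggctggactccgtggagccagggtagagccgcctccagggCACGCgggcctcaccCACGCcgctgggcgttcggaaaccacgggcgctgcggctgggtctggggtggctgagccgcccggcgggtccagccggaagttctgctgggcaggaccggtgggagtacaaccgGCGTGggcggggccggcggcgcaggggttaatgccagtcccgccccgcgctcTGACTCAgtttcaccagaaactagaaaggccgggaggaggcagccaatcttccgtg
Plaur, chr7:24462233-24462532, plus strand: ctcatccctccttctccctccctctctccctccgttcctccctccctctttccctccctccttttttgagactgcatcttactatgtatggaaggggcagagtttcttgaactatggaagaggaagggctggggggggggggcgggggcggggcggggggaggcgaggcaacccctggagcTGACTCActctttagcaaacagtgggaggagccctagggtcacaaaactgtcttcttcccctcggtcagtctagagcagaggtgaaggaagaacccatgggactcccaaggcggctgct

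Each of these 3 windows held 1 match to the AP-1 pattern, which 7.81% of the 32851 listed windows of this length held. It began 94 bases before the start in Serpinb2, 6 bases before it in Spint1 and 69 bases before it in Plaur, and the Spint2 window had 0 matches. Serpinb2 also had a TATA box match 29 bases before its start (held by 13.6% of all windows) and a STAT pattern match 11 bases into the transcript (8.30%). The aryl hydrocarbon receptor core was matched 3 times in Spint1, 2 times in Spint2 and 0 times in Serpinb2 and Plaur, and 32.4% of all windows held it. The kappa B pattern (4.36%) was matched in none of the 4 genes. A second listed start of Serpinb2, at chr1:107511260-107511559, gave a window that overlaps the first and held the same 3 matches.

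Detection split the 10 probes into separate groups. The passing probes of Plau, Plaur, Serpinb2 and Spint1 were detected on all 9 arrays, with a highest detection p-value of 0.00214 (Serpinb2), so none of them passed through 1 group alone. The remaining 6 probes, 1 for Spint1, 2 for Spint2 and 3 for St14, gave 54 readings, of which 2 were under 0.05. St14 probe ILMN_1255342, with a detection p-value of 0.0160 on 1 array and a range over the others up to 0.271, came nearest to the limit from outside. For Spint2 the 2 probes lay between 4.31 and 4.73 on the log2 scale on all 9 arrays, close to the median of all probes (4.53), and were not well above background in any group. No fold change is therefore given for Spint2 and St14.

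**Figure D1:**
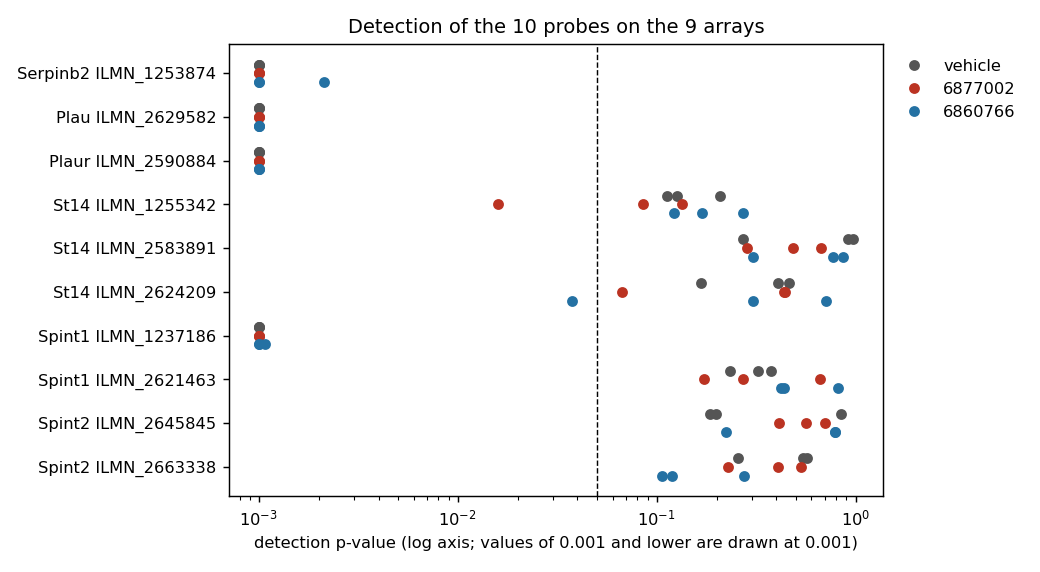
Detection p-value (log axis) of each of the 10 probes on the 9 arrays, coloured by group, with the threshold of 0.05 as a dashed line. The probes of Serpinb2, Plau and Plaur and 1 of the 2 Spint1 probes sit far left of the line on every array, while only 2 readings of the other 6 probes, both for St14, fall left of it.

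With 6877002, 3 of the 4 detected genes rose: the inhibitor gene Serpinb2 3.70-fold, the matriptase inhibitor gene Spint1 2.95-fold and the urokinase gene Plau 1.76-fold. With 6860766, Plau rose 1.73-fold and was the only one of the 4 to pass. Plaur passed in neither comparison. Differences were tested in limma on the deposited log2 values of all 9 arrays, with Benjamini-Hochberg adjustment over the 16415 probes and a threshold of 0.05. Over all tested probes 2.52% passed for 6877002 against vehicle (1.68% higher, 0.841% lower) and 2.40% for 6860766 against vehicle (0.865% higher, 1.54% lower).

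**Figure D2:**
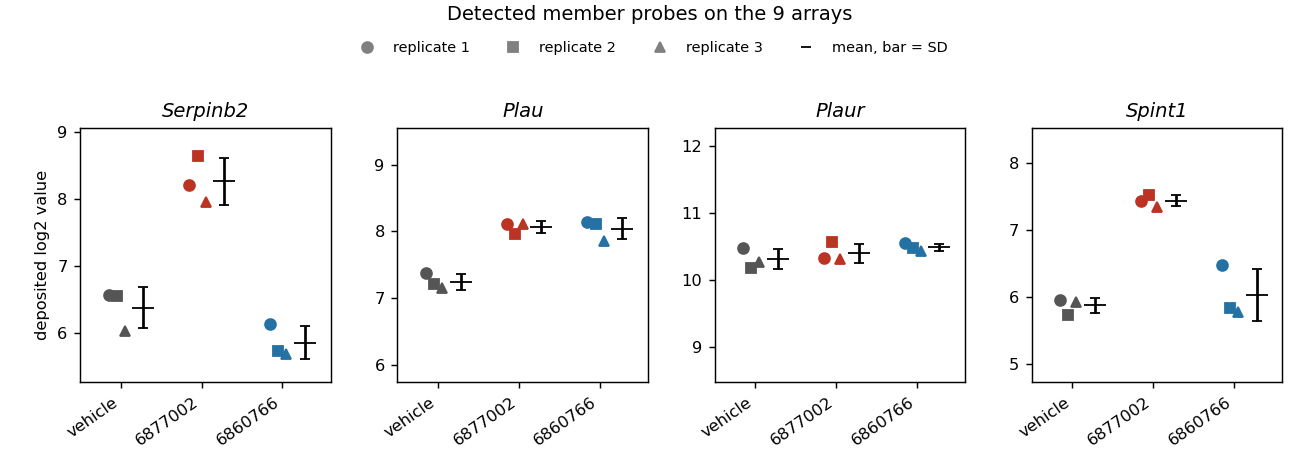
Deposited log2 value of the detected probe of each gene on every array (marker shape gives the replicate), with the group mean and SD beside the points; the 4 panels have the same span. Serpinb2 and Spint1 are high with 6877002 alone, Plau is high with both compounds, and the Plaur groups overlap.

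Plau, the activator, read 7.38, 7.21 and 7.15 on vehicle replicates 1, 2 and 3. It read 8.12, 7.96 and 8.12 on the 6877002 arrays, and 8.15, 8.11 and 7.86 on the 6860766 arrays. All 6 compound arrays lay above all 3 vehicle arrays, and the ranges of the compounds overlapped each other. The mean was 7.25 ± 0.12 with vehicle, 8.06 ± 0.09 with 6877002 and 8.04 ± 0.15 with 6860766 (SD, n = 3 arrays each).
Against vehicle, Plau rose by 0.82 ± 0.10 (log2 difference, SE) with 6877002, with an adjusted p of 8.99e-05 in limma. It rose by 0.79 ± 0.10 with 6860766, with an adjusted p of 0.000182. These comparisons share the vehicle arrays. Of all tested probes, 22.2% had groups that did not overlap for 6877002 against vehicle (10.7% higher) and 14.9% for 6860766 against vehicle (7.35% higher).
The compounds themselves differed by 0.02 ± 0.10 (6877002 minus 6860766), with an adjusted p of 0.949 in limma and a 95% confidence interval from -0.19 to 0.24. With 3 arrays per group, differences within this interval remain compatible with the data. The interval is not a limit of detection. Within slide 4, 6877002 replicate 3 lay 0.97 above vehicle replicate 3, and within slide 1 the 6860766 arrays lay 0.75 above vehicle replicate 1. In all 25 other settings both rises passed, with the highest adjusted p at 0.0160 and 0.0305.

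Plaur, the surface receptor for urokinase, was detected on every array with little spread. It read 10.48, 10.19 and 10.28 with vehicle, 10.33, 10.56 and 10.31 with 6877002, and 10.55, 10.48 and 10.44 with 6860766. The 3 groups overlapped in every pair.
Its log2 difference from vehicle was 0.09 ± 0.08 with 6877002 (95% confidence interval -0.09 to 0.26, adjusted p = 0.658 in limma). With 6860766 it was 0.17 ± 0.08 (-0.0016 to 0.35, adjusted p = 0.429). The compounds differed by -0.09 ± 0.08 (-0.26 to 0.09, adjusted p = 0.692). The intervals reach at most a 1.27-fold change in either comparison with vehicle, smaller than the fold of Plau in both, although a difference between the genes was not tested. The value with 6860766 was 0.04 within slide 1 and 0.03 with slide as a block.

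Serpinb2, the urokinase inhibitor, had the widest range of the 4. It read 6.56, 6.54 and 6.02 with vehicle, 8.20, 8.64 and 7.95 with 6877002, and 6.13, 5.73 and 5.68 with 6860766. The 6877002 arrays were all above the others, whereas vehicle replicate 3 lay below 6860766 replicate 1, so these last groups overlapped. In intensity the probe went from 153 to 173 units with vehicle to 327 to 514 with 6877002 and 139 to 167 with 6860766.
The group means were 6.37 ± 0.31, 8.26 ± 0.35 and 5.85 ± 0.25 in that order (SD, n = 3). The rise with 6877002 was 1.89 ± 0.17 (95% confidence interval 1.52 to 2.25, adjusted p = 1.84e-06 in limma). By size it ranked 1 among the 16415 probes, which is a description, since the gene was picked for it. Within slide 4 it was 1.93.
The difference of 6860766 from vehicle was -0.53 ± 0.17 (-0.89 to -0.16), with an adjusted p of 0.155 in limma, so no change was called. With slide as a fixed block it became -0.68 and passed (adjusted p = 0.0238), and within slide 1 it was -0.63. Without background correction it was -0.23 (adjusted p = 0.381 in limma). Without the arrays of mouse number 3 it was -0.36, and without vehicle replicate 3 it was -0.70; neither passed.

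St14, the protease that Spint1 and Spint2 restrain, was near background in all groups, as its 3 probes show. Spint1 was measured by probe ILMN_1237186, which read 5.95, 5.74 and 5.93 with vehicle, 7.44, 7.52 and 7.35 with 6877002, and 6.47, 5.84 and 5.77 with 6860766. The 6877002 arrays stood above all others with little spread among them, and 6860766 replicate 1 stood above the rest of its group.
The means were 5.87 ± 0.12, 7.44 ± 0.08 and 6.03 ± 0.39 (SD, n = 3). The rise with 6877002 was 1.56 ± 0.16 (95% confidence interval 1.23 to 1.89, adjusted p = 6.16e-06 in limma), which ranked 2 by size after Serpinb2. With 6860766 the difference was 0.15 ± 0.16 (-0.18 to 0.48, adjusted p = 0.788), and without 6860766 replicate 1 it was -0.07. Within slide 4 the first was 1.42, and within slide 1 the second was 0.20.
The other Spint1 probe, ILMN_2621463, did not show this: it lay between 4.31 and 4.60 on all 9 arrays, with detection p-values from 0.173 to 0.812. Its group means were 4.48 with vehicle, 4.49 with 6877002 and 4.39 with 6860766. A probe at background on all arrays cannot tell whether Spint1 changed. The rise therefore rests on 1 probe and was not borne out by the other. Epithelial markers, which could accompany Spint1, were scarce. Of 10 with a probe only Cdh1 and Cldn7 were detected, Epcam, Krt8, Krt18 and Krt19 were not, and the linear values of the detected pair summed to 62.0 to 85.7 with vehicle, 61.0 to 78.4 with 6877002 and 59.3 to 74.5 with 6860766. Neither of that pair passed in any comparison. In RNA from whole cultures, a change in the number of cells that express a gene and a change in its RNA per cell cannot be told apart.

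The compounds were also set against each other, with the caution that their doses are not in the labels. Of the 4 detected genes, Serpinb2 and Spint1 were higher with 6877002 than with 6860766, beside 3.95% of all tested probes that passed (3.00% higher). The arrays of both genes did not overlap between the compounds, which held for 20.4% of all tested probes (9.11% higher). Serpinb2 was 5.33-fold higher, with a log2 difference of 2.42 ± 0.17 (95% confidence interval 2.05 to 2.78, adjusted p = 6.54e-08 in limma). Spint1 was 2.66-fold higher, with a log2 difference of 1.41 ± 0.16 (1.08 to 1.74, adjusted p = 7.36e-06). On slide 3, which held both compounds, these differences were 2.74 and 1.71. From the highest level to the lowest, the groups ran 6877002, vehicle and 6860766 for Serpinb2 and 6877002, 6860766 and vehicle for Spint1, and in both genes the lower pair did not pass.

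**Figure D3:**
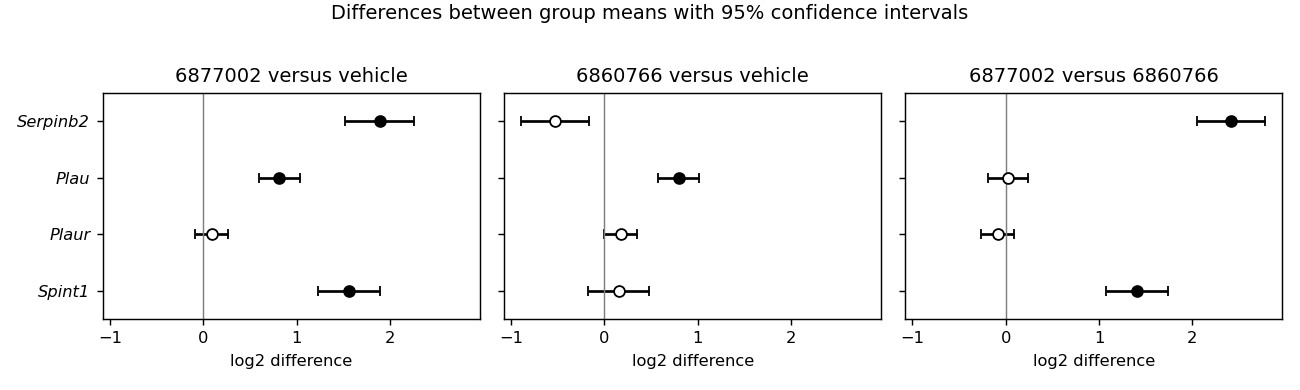
Log2 difference (x axis) of each detected gene in the 3 comparisons with its 95% confidence interval; filled points passed the limma test at an adjusted p under 0.05. Plau passed for both compounds against vehicle with a difference near 0 between them, and Serpinb2 and Spint1 passed wherever 6877002 was compared.

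The size of these differences depended on how background was treated. Without background correction the rise with 6877002 was 1.21 for Serpinb2, 0.83 for Spint1 and 0.57 for Plau, and the rise of Plau with 6860766 was 0.55. The differences between the compounds became 1.44 for Serpinb2 and 0.76 for Spint1. All of these passed. With an array or a mouse number left out, the rise with 6877002 ran from 1.70 to 2.13 for Serpinb2 and from 1.49 to 1.60 for Spint1.

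**Figure D4:**
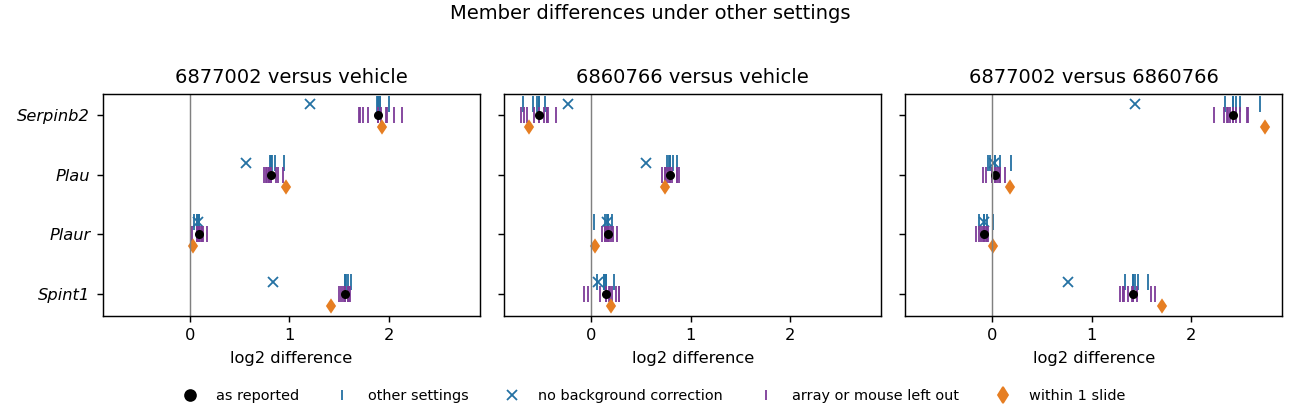
Log2 differences of the 4 genes as reported (black), under other settings (blue), with an array or a mouse number left out (purple) and within single slides (orange). In the comparisons where Serpinb2, Spint1 or Plau passed, the crosses without background correction lie nearest to 0 among the other settings and left-out arrays, and every value of Serpinb2 and Spint1 for 6877002 stays above 0.

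The 4 genes did not move as a block. Across the 9 arrays, which share 3 treatments, Serpinb2 and Spint1 had a Pearson r of 0.93, Plau and Spint1 0.58, Plau and Plaur 0.53, Plau and Serpinb2 0.33, Plaur and Spint1 0.17 and Plaur and Serpinb2 0.01. These values, and those that follow, describe the arrays and carry no test.
The patterns most like each gene were sought among 14089 probes of other genes. Plau was closest to Trib3, a pseudokinase of the stress response (r = 0.98), to Cipc, an inhibitor of the clock protein CLOCK (0.97), and to 1 probe of Gpnmb, a membrane glycoprotein of macrophages (0.97). The brightest Gpnmb probe did not follow it, with log2 differences from vehicle of -0.02 and -0.08. Trib3 had a log2 difference from vehicle of 0.69 with each compound. Serpinb2 was closest to Zfp36, which encodes the mRNA-destabilising protein tristetraprolin (0.97), Ugt1a7c, a glucuronosyltransferase (0.97), and Nqo1, a quinone reductase (0.97). Nqo1 differed from vehicle by 0.53 with 6877002 and by -0.05 with 6860766.
Spint1 was closest to Smox, the spermine oxidase (0.99), Lyzl4, a lysozyme-like gene (0.99), and Insl6, an insulin-like gene (0.98). Smox differed from vehicle by 0.86 with 6877002 and by 0.01 with 6860766. Plaur was closest to Ptprs, a receptor tyrosine phosphatase (0.95), Misp (0.94) and Ccl6, a chemokine (0.93).

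Few other genes of the pathway passed the test, at a share near that of all features. The 6 lists around plasminogen, urokinase receptor partners, matriptase, serpins, coagulation and leukocyte serine proteases named 171 genes, of which 153 had a probe and 55 were tested, each through its brightest passing probe. With 6877002, 2 rose, 0 fell and 53 did not pass; with 6860766, 0 rose, 1 fell and 54 did not pass. Over all 11406 features counted in the same way, 2.80% (1.82% higher) and 2.70% passed. Between the compounds 2 were higher with 6877002 and 1 was lower, beside 4.31% of all features (3.25% higher, 1.06% lower). At an unadjusted p under 0.05 in limma stood 13 of the 55 with 6877002, 9 with 6860766 and 8 between the compounds. The share of all features at this unadjusted threshold is not given here, so no excess can be read from these counts. The 95% confidence intervals of some that did not pass exclude 0. With 6877002 these included Fgl2 (0.66, adjusted p = 0.0539 in limma), Procr, the protein C receptor (0.62), Serpina3f (0.43) and Serpinb12 (-0.41). Among them were also Itgav, an integrin chain (-0.37 and -0.38 with 6877002 and 6860766), and the protease gene Ctsb (-0.20 and -0.28). They are examples and not the full set. The median log2 difference of the 55 was 0.05 with 6877002 and 0.02 with 6860766, beside -0.01 and 0.01 over all features.

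**Figure D5:**
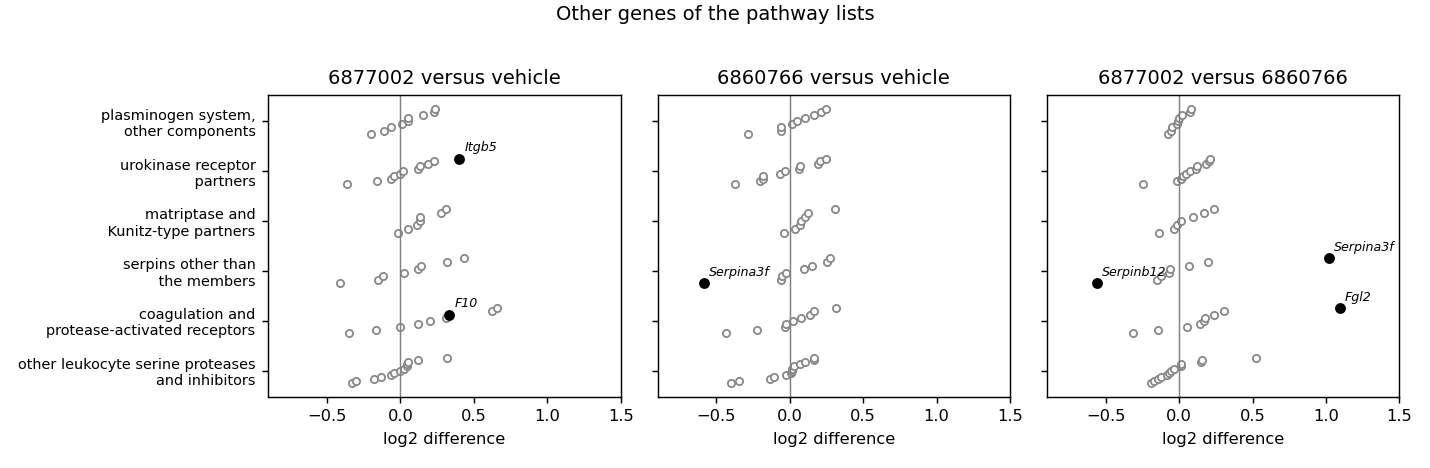
Log2 difference of every tested gene of the 6 lists (open circles) in the 3 comparisons, with genes that passed filled and named. Itgb5 and F10 passed with 6877002 against vehicle, Serpina3f with 6860766, and Fgl2, Serpina3f and Serpinb12 between the compounds.

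Of 9 tested other components of the plasminogen system, 0 passed in limma in any comparison. They included the plasminogen-binding proteins Anxa2 and S100a10, the receptor gene Plgrkt, and Lrp1, the endocytic receptor that clears urokinase bound to its inhibitors. Lrp1 had a log2 difference from vehicle of 0.23 with 6877002 and 0.25 with 6860766 (adjusted p = 0.436 and 0.524 in limma), and S100a10 one of 0.23 and 0.21. The genes of plasminogen itself (Plg), of tissue-type plasminogen activator (Plat) and of the plasmin inhibitor Serpinf2 had a probe but none that passed detection.

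Among 11 tested partners of the urokinase receptor, the integrin chain Itgb5 rose with 6877002, by 0.40 ± 0.10 (adjusted p = 0.0290 in limma). It read 8.56, 8.51 and 8.61 with vehicle and 8.93, 9.18 and 8.77 with 6877002, which do not overlap. Of all tested probes, 22.2% did not overlap in this comparison (10.7% higher). This call was lost in 10 of 25 other settings, with an adjusted p up to 0.368. The 6860766 arrays read 8.74, 8.67 and 8.85, and their difference from vehicle was 0.19 (adjusted p = 0.459 in limma). Between the compounds Itgb5 differed by 0.21 (adjusted p = 0.299), so a difference between them was not called. Itgam and Itgb2, the chains of Mac-1, an integrin that associates with the receptor, had differences of 0.13 and 0.19 with 6877002 and did not pass.

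Of 9 tested coagulation and protease-activated receptor genes, F10, which encodes factor X, rose with 6877002, by 0.33 ± 0.07 (adjusted p = 0.0146 in limma). It read 11.22, 10.94 and 11.07 with vehicle and 11.43, 11.34 and 11.46 with 6877002. The call was lost in 7 of 25 other settings (adjusted p up to 0.282). With 6860766 it read 11.26, 11.23 and 11.23 and differed from vehicle by 0.16, which did not pass (adjusted p = 0.361 in limma). The compounds differed in F10 by 0.17 (adjusted p = 0.255), so a difference between them was not called. Fgl2, a fibrinogen-like protein with prothrombinase activity, was higher with 6877002 than with 6860766 by 1.09 ± 0.18 (adjusted p = 0.000564) and passed in all 25 other settings, with a difference of 0.53 without background correction. The Fgl2 arrays read 7.03, 6.84 and 7.06 against 5.59, 5.84 and 6.23, and those with vehicle read 6.25, 5.98 and 6.72. Against vehicle Fgl2 differed by 0.66 with 6877002 and by -0.43 with 6860766. Neither of these passed (adjusted p = 0.0539 and 0.301 in limma). The list median was 0.20 with 6877002 and 0.02 with 6860766 against vehicle.

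Of 8 tested serpins besides Serpinb2, Serpina3f, a serpin of the antichymotrypsin cluster, changed by -0.59 ± 0.14 with 6860766 (adjusted p = 0.0335 in limma). It read 7.75, 8.27 and 8.40 with vehicle and 7.30, 7.81 and 7.55 with 6860766, which overlap, and the call was lost in 11 of 25 other settings (adjusted p up to 0.210). Between the compounds it was 1.02 ± 0.14 higher with 6877002 (adjusted p = 0.000122) and passed in all 25. Serpinb12 differed by -0.56 ± 0.15 between the compounds (6877002 minus 6860766, adjusted p = 0.0370), a call lost in 12 of 25, with a difference of -0.20 without background correction. Near-identical copies of Serpina3f exist in the mouse, and the probe may read more than 1 of them.

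Of 7 tested matriptase and Kunitz-type partners, among them Prss8 (prostasin), Hgf and the Kunitz-domain genes App, Aplp2 and Tfpi, 0 passed in limma in any comparison. Their medians were 0.13 with 6877002 and 0.08 with 6860766. Of 13 other serine protease and inhibitor genes of leukocytes, such as Slpi, Furin and Cfb, 0 passed either, with medians of 0.00034 and 0.01.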

How the data were processed

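Illumina bead arrays of biotin-labelled cRNA were read for 9 samples. Per the file headers, one deposited table gives raw probe intensity values. Beside each stands a deposited detection p-value. GenomeStudio 2011.1, R 3.1.3 and limma 3.22.7 are named in the submitters' processing notes. The other deposited table holds log2 values normalised between arrays by the authors; they differed by at most 0.0161 from limma's neqc (normexp background, offset 16, quantile) run here on the intensities. The offset understates changes of dim probes.

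Deposited log2 values of the 16415 of 45281 probes detected at p under 0.05 on 3 or more arrays were fitted in limma 3.58.1 (R 4.3.3) with 1 coefficient per group over all 9 arrays, eBayes with trend and Benjamini-Hochberg adjustment. An exact permutation of 3 arrays against 3 cannot go below p = 0.1. In the platform annotation 34885 probes had 1 symbol, 18 had several and 10378 had none. The number of arrays limits the precision. The members, gene lists and naming rule (all member probes, the 3 most correlated genes of each, at most 5 list genes past the threshold per comparison) were chosen with earlier results of these data known. Alternatives covered background, scaling, detection, probes per gene, variance model, slide, mouse number and left-out arrays.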

Additional observations from a re-analysis of the deposited data

Results flagged for a closer look

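St14 probe ILMN_1255342, which entered no comparison, read 5.16 (detection p-value 0.0160) on 6877002 replicate 2, while the vehicle arrays reached at most 4.71 and none was detected. St14 probe ILMN_2624209 read 4.93 (detection p-value 0.0374) on 6860766 replicate 2, while the vehicle arrays reached at most 4.60 and none was detected. They were listed because a probe outside the comparisons was detected with a compound at a value above every vehicle array. These are the 2 readings under 0.05 among 36 compound readings of the 6 undetected probes (0 among 18 vehicle readings). Readings at background also fall under 0.05 at times, and a link to a compound was not tested. The St14 probes did not share the array on which each was detected.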

How the results depend on the processing

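The rises of Serpinb2, Spint1 and Plau with 6877002, that of Plau with 6860766 and the differences of Serpinb2 and Spint1 between the compounds kept their direction and passed in each of their 25 alternatives. The number of passing member probes was 3, 1 and 2 in the 3 comparisons and moved in 1 alternative, to 2 for 6860766 against vehicle with slide as a fixed block. Of values that did not pass, the Plau difference between the compounds turned to -0.043 with median scaling and -0.019 with array weights and ran from -0.092 to 0.13 with an array or mouse number left out. The Plaur difference between the compounds turned to 0.0075 with slide as a block, and the Spint1 difference of 6860766 from vehicle ran from -0.070 to 0.28 with an array or mouse number left out.

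Probes passing were 414 for 6877002 against vehicle, 394 for 6860766 against vehicle (142 higher, 252 lower) and 649 between the compounds. They became 257, 196 (106 higher, 90 lower) and 382 with median scaling and 159, 72 and 375 without the variance trend. Array weights gave 757 for 6877002 against vehicle and 1420 between the compounds, and fits of only the groups compared gave 756 and 239 for 6877002 and 6860766 against vehicle. The causes were not tested. With an array or mouse number left out they ran from 153 to 769, 108 to 568 and 243 to 1361. For 6877002 against vehicle the count moved by over 1.5 times without vehicle replicate 1 (246) or 2 (236), 6877002 replicate 1 (192) or 2 (208), or 6860766 replicate 3 (769). For 6860766 against vehicle it did so without vehicle replicate 2 (174) or 6860766 replicate 2 (248), and between the compounds without 6877002 replicate 1 or 2 (392 each) or 6860766 replicate 2 (409) or 3 (1326). With the replicate block on mouse number the counts were 406, 395 and 605, and the call of Serpinb12 between the compounds was lost (adjusted p = 0.0571 in limma); it changed no other call of a named gene. Same-numbered arrays correlated from -0.14 to 0.15 in their deviations from group means (9 pairs, 1 over 0.1), so the numbers were not taken as pairs, and 2 of 9 arrays correlated best with their own number.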
